A study of Mus musculus with 12 samples.

Results

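The miR-30 family was followed across stem-like medulloblastoma cells of the mouse whose Miat or Mtdh locus had been targeted. Its precursors were taken by symbol from the count table of each library: Mir30a, Mir30b, Mir30c-1, Mir30c-2, Mir30d and Mir30e. They are 6 of the 1116 miRNA precursor symbols in the tables, of which 270 had counts in any library, and all 6 had counts. Small RNA was sequenced in 12 libraries, 4 in each of 3 groups. Libraries labelled Mtdh knockdown carried sgMtdh-2 (libraries 2-1 and 2-2) or sgMtdh-1 (1-1 and 1-2). Libraries labelled Miat knockdown carried sgMiat-96 (96-1 and 96-2) or sgMiat-6 (6-1 and 6-2). Control libraries 1 to 4 carried sgGal4-4, a guide named for a yeast transcription factor, and are labelled WT. All 12 share the genotype Math1-Cre; SmoM2, so "WT" is tumour cells with the control guide and not normal cerebellum. SmoM2 is a constitutively active Smoothened, the transducer of Hedgehog signals, and the Math1 promoter directs Cre to granule neuron progenitors. Miat is a long non-coding RNA and Mtdh encodes the protein metadherin. The labels name CRISPR and a knockdown but not the kind of Cas enzyme, and they do not say whether libraries of a guide came from separate cultures. All p-values are therefore set against the spread among these libraries only, and part of it may be technical.

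A miRNA is cut from a hairpin precursor, loaded into an Argonaute protein, and pairs with messenger RNAs mainly through its seed, bases 2 to 8, which lowers the translation and stability of those messages. Members of a family share the seed and so can bind overlapping sets of messages. The miR-30 family is known from other systems for holding back epithelial to mesenchymal transition, among whose targets is the transcription factor Snai1, and for tuning differentiation and autophagy. In human melanoma, miR-30d and miR-30b are known to promote invasion.

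The precursors lie in 3 pairs on the GRCm38 genome. Mir30d is at chr15:68341208-68341289 on the minus strand, wholly within an exon of the long non-coding RNA Gm20732 in GENCODE annotation, and Mir30b is at chr15:68337415-68337510 on the same strand, where 16 of its bases overlap an exon of the processed transcript Gm26621. The pair is separated by 3697 bases. Mir30a is at chr1:23272269-23272339 on the plus strand and overlaps no other annotated gene, and Mir30c-2 is at chr1:23291701-23291784 on the same strand in an exon of the long non-coding RNA Gm27028. These loci are 19361 bases apart. Mir30e at chr4:120772606-120772697 and Mir30c-1 at chr4:120769534-120769622, both on the minus strand and 2983 bases apart, lie in introns of Nfyc, which encodes a subunit of the transcription factor NF-Y. Transcripts of the host genes are not analysed here.

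RefSeq sequences (GRCm38.p6) were matched for 4 of the 6 precursors: Mir30a, Mir30c-1, Mir30c-2 and Mir30e. They are shown because the counts are per hairpin and because the members differ by few bases. The mature 5p forms read as follows, 5′ to 3′, with the seed in capitals.
mmu-miR-30a-5p: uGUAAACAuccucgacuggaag
mmu-miR-30e-5p: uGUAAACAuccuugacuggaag
mmu-miR-30c-5p: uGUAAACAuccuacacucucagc
mmu-miR-384-5p: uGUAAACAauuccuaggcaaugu
Every one of these carries the seed GUAAACA. The last, miR-384, has the seed without the miR-30 name, and the RefSeq list of 1738 mature forms has 5 with this seed at bases 2 to 8, counting the 30c form from each of its loci. That list gave no sequence for Mir30b or Mir30d, so the count leaves both out and may miss other precursors. Between miR-30a-5p and miR-30e-5p the single difference is C13U, counted from 1 at the 5′ end of miR-30a-5p. Between miR-30a-5p and miR-30c-5p 5 of 22 compared bases differ, all outside the seed. The 3p forms from the other arm split in pairs by seed.
mmu-miR-30a-3p: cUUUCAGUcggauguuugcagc
mmu-miR-30e-3p: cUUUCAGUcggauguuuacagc
mmu-miR-30c-1-3p: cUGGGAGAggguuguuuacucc
mmu-miR-30c-2-3p: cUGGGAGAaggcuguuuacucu
In the hairpins, both mature arms are in capitals.
Mir30a: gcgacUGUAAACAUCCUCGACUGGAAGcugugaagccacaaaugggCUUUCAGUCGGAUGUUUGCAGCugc
Mir30e: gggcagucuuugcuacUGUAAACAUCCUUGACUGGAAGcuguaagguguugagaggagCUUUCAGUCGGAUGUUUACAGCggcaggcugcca
Mir30c-1: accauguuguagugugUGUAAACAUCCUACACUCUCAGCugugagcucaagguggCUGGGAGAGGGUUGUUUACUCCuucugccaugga
Mir30c-2: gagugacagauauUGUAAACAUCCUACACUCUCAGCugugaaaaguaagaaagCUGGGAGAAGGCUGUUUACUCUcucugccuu
The mature miR-30c-5p is the same in 23 of 23 bases from both 30c loci, and the 2 hairpins share a run of 28 bases. A read of that form cannot tell Mir30c-1 from Mir30c-2, so their separate counts are uncertain and their sum is given too. The sum is uncertain as well, since it is too high if such reads were counted at both loci. The Mir30a and Mir30e hairpins share a run of 18 bases.

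Libraries labelled Mtdh knockdown held 23318 to 154111 counts over 4529 non-coding transcripts, and 1015 to 7287 of these fell on miRNA precursors. Libraries labelled Miat knockdown held 83544 to 164537 counts with 1407 to 3921 on miRNA precursors, and control libraries held 34263 to 65240 with 2369 to 4568. The ribosomal RNA precursor Rn45s took 63.7% to 76.7% of counts in Mtdh libraries, 70.2% to 82.7% in Miat libraries and 53.0% to 55.4% in controls. Fragments of Miat itself were counted 2 times in all 4 Mtdh libraries together, 1 and 0 times with sgMiat-96, 49 and 30 times with sgMiat-6, and 0, 1, 1 and 1 times in the controls. The sgMiat-6 libraries thus go against their label in these fragments, although small fragments are no measure of how much long transcript a cell holds. Miat and Mtdh libraries below are therefore libraries so labelled, and results are given for both guides apart and without sgMiat-6. The Mtdh transcript is not analysed here. Neural miRNAs (Mir9, Mir124 and Mir128 loci) had counts at 5 of 8 loci in the tables, the 3 Mir9 loci among them, while the Mir124 loci, marks of mature neurons, were at 0. The Mir9 loci had 250, 234 and 235 counts in all and close counts in each library. They may hold the same reads and are not 3 separate signs. Markers of blood, muscle, stroma and liver had counts at 2 of 11 loci, Mir1a-1 and Mir143, with 1 count each. Of all 1116 miRNA symbols only 270 had counts in any library, so zeros were common and these lists say little about which cells were present.

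Mir30d supplied nearly all miR-30 counts in every library. It had 5256 and 1248 counts with sgMtdh-2, 645 and 2635 with sgMtdh-1, 545 and 317 with sgMiat-96, 890 and 674 with sgMiat-6, and 1231, 2024, 1537 and 2491 in the controls. Raw counts follow the depth of a library, so the Mtdh libraries spread both above and below the controls. By count Mir30d ranked first among all miRNAs in every library except Miat 96-1, where it ranked second.

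**Figure D1:**
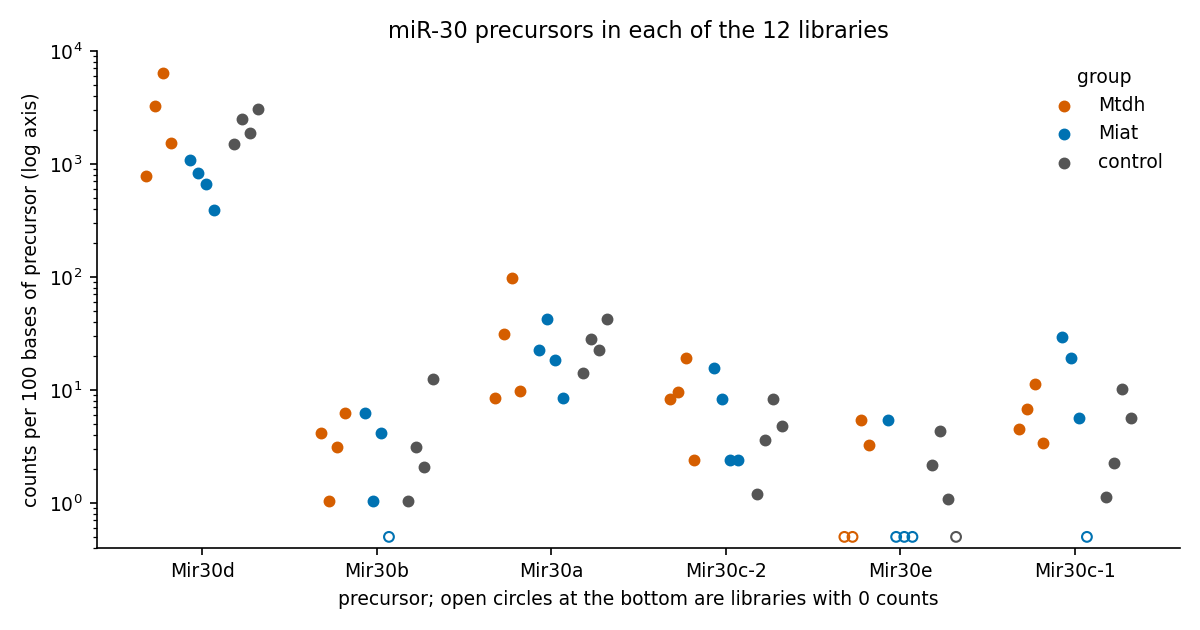
Counts per 100 bases of each miR-30 precursor (log axis) in the 12 libraries, 1 point per library, coloured by group; open circles at the bottom are libraries with 0 counts. Mir30d stands far above the other 5 precursors in every library, and Mir30e is at 0 in 6 of 12.

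The other members were counted far less. Per base of precursor and over all libraries, Mir30d had 68.9 times the counts of Mir30a, 240.4 times those of Mir30c-1, 277 times those of Mir30c-2, 531 times those of Mir30b and 1094 times those of Mir30e. Mir30b, its neighbour on chromosome 15, summed to 43 counts against 19493 for Mir30d. Neighbouring loci therefore did not give neighbouring counts, nor did the chromosome 1 pair, with 245 counts for Mir30a and 72 for Mir30c-2, or the chromosome 4 pair, with 20 for Mir30e and 88 for Mir30c-1.

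Mir30d as a share of miR-30 counts was 98.1% and 98.3% with sgMtdh-2, 96.8% and 98.6% with sgMtdh-1, 95.8% and 97.5% with sgMiat-96, 93.1% and 92.5% with sgMiat-6, and 98.8%, 98.4%, 97.8% and 98.0% in the controls. The mean was 98.0% ± 0.781 in Mtdh libraries, 94.7% ± 2.37 in Miat libraries and 98.3% ± 0.458 in controls (SD, n = 4 each). All 4 Miat libraries lay below every control, and the sgMiat-6 pair lay lowest. For sgMiat-96 the 95% exact binomial intervals, 93.8% to 97.3% in Miat 96-1 and 95.2% to 98.9% in Miat 96-2, overlapped that of control 3, 96.9% to 98.4%. In the sgMiat-6 libraries the other 5 members made up 6.90% (95% exact binomial interval 5.38% to 8.70%) and 7.54% (5.73% to 9.71%) of miR-30 counts. In control 3, where they were highest among controls, they made up 2.23% (1.56% to 3.08%). Such intervals cover counting error only, and no test was run on a share over the members.

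Read against other RNA of the same library, Mir30d was far lower in the libraries labelled Miat knockdown than in either other group. Per 100 counts of all other miRNAs it had 259 and 229 counts with sgMtdh-2, 174 and 95.7 with sgMtdh-1, 18.2 and 29.1 with sgMiat-96, 29.4 and 29.5 with sgMiat-6, and 108, 132, 104 and 120 in the controls. The Miat libraries overlapped neither the controls nor the Mtdh libraries. Of the Mtdh libraries 3 lay above every control and Mtdh 1-2 lay below all of them.

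Averages were 26.5 ± 5.54 in Miat libraries and 116 ± 12.8 in controls (SD, n = 4 each), a log2 difference of -2.15, or 4.44-fold lower (two-sided exact permutation p = 0.0286, adjusted p = 0.0429). In Mtdh libraries the average was 189 ± 71.6 (SD, n = 4), a log2 difference from control of 0.62 (exact permutation p = 0.143, adjusted p = 0.184). Between Mtdh and Miat libraries the log2 difference was 2.77, or 6.81-fold higher (exact permutation p = 0.0286, adjusted p = 0.0429). These differences and folds are between means of log2 values, so they need not equal the ratios of the averages given. The lowest value, in Miat 96-1, goes with 1551 counts of Mir6538 among its 2989 other miRNA counts. With Mir6538 left out of every library, an alternative added after seeing the data, Miat libraries held 36.3 to 37.9 Mir30d counts per 100 other miRNA counts and controls 131 to 165, 3.92-fold lower (exact permutation p = 0.0286). The value 0.0286 is the smallest that 4 libraries against 4 can give, and p-values were adjusted over 9 such tests. All 9 use the Mir30d counts of the same libraries, so they are not separate signs. The adjusted permutation p of 0.0429 arises because several of them share that smallest value. In bulk RNA, fewer cells that express Mir30d and less Mir30d per cell cannot be told apart.

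**Figure D2:**
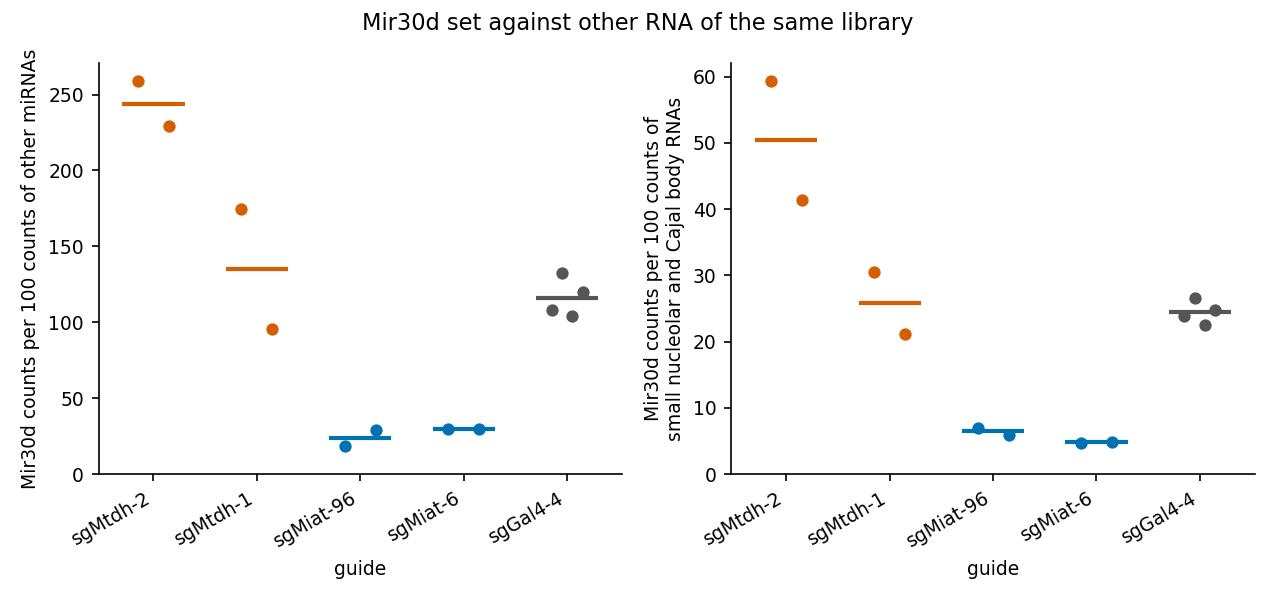
Mir30d counts per 100 counts of all other miRNAs (left) and per 100 counts of small nucleolar and Cajal body RNAs (right); points are libraries, bars are guide means, colours are groups. With both Miat guides every library lies below the controls in both panels, at 18.2 to 29.5 on the left and 4.74 to 6.94 on the right.

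A different yardstick gave a difference of like size. The small nucleolar and Cajal body RNAs guide chemical modification of other RNAs and are neither miRNAs nor Rn45s fragments. Per 100 of their counts Mir30d had 59.3 and 41.4 counts with sgMtdh-2, 30.4 and 21.2 with sgMtdh-1, 6.94 and 5.95 with sgMiat-96, 4.74 and 4.84 with sgMiat-6, and 23.9, 26.6, 22.5 and 24.8 in the controls. Again the Miat libraries overlapped neither other group, and Mtdh 1-2 was the only Mtdh library below the controls. Whether other miRNAs separate on this yardstick was not counted. The log2 difference was -2.14 between Miat and control libraries, or 4.40-fold lower (exact permutation p = 0.0286, adjusted p = 0.0429). It was 0.54 between Mtdh and control libraries (exact permutation p = 0.171, adjusted p = 0.193), and 2.68 between Mtdh and Miat libraries, or 6.40-fold higher (exact permutation p = 0.0286, adjusted p = 0.0429). Without sgMiat-6 the Miat average would be that of sgMiat-96, at 23.7 per 100 other miRNA counts and 6.44 per 100 small nucleolar and Cajal body RNA counts, against 116 and 24.4 in the controls.

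The Rn45s share moved with these groups and did not overlap between Miat and control libraries, or between Mtdh and control libraries. It was above the controls in both, at 70.2% to 82.7% in Miat libraries and 63.7% to 76.7% in Mtdh libraries. With the Rn45s share as a covariate the Mir30d log2 fold change in edgeR was -1.19 for Miat against control (adjusted p = 0.296), so Rn45s share and group cannot be told apart there. Between Mtdh and Miat libraries, whose Rn45s shares overlap, it was 2.56 with the covariate (edgeR adjusted p = 0.000148).

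In edgeR's quasi-likelihood test over the whole table, 29 miRNAs had enough counts, and Mir30d and Mir30a were the members among them. Log2 fold changes here are on TMM-scaled counts, a scaling that takes the typical miRNA as unchanged. Over all 29 their median was -0.15 for Mtdh against control, -0.08 for Miat against control and -0.08 for Mtdh against Miat. When library totals replaced TMM the medians were -0.59, 0.25 and -0.95, and the value of Mir30a for Miat against control was 0.12 with library totals and -0.24 with TMM, passing under neither. Among the 29, an adjusted p under 0.05 was reached by 7 miRNAs, or 24.1%, in Mtdh against control, by 7, or 24.1%, in Miat against control, and by 2, or 6.90%, in Mtdh against Miat.

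Mir30d fell with Miat guides by 1.63 on the log2 scale, or 3.10-fold (SE 0.33, edgeR adjusted p = 0.00156). Without the sgMiat-6 libraries it was -1.81 (edgeR adjusted p = 0.0159). Mir30d was 1.01 higher on the log2 scale, or 2.02-fold, in Mtdh libraries than in controls (SE 0.32, edgeR adjusted p = 0.0366). That call rests on the settings, since 25 of 30 alternatives lost it and leaving out any library except Mtdh 1-2 ended it, with values of 0.56 to 1.23 over all libraries left out in turn. With library totals in place of TMM the Mtdh against control value was 0.26 (edgeR adjusted p = 0.401). Those totals include Mir30d itself, so such scaling draws its fold changes toward 0. On average Mir30d was 63.5% of miRNA counts in Mtdh libraries, 20.9% in Miat libraries and 53.6% in controls. Between Mtdh and Miat libraries the Mir30d log2 fold change was 2.64, or 6.25-fold higher (SE 0.34, edgeR adjusted p = 3.30e-05), and it passed under all 30 alternatives. Its size varied with the setting, at 1.53, or 2.88-fold, with library totals and 2.04, or 4.11-fold, without sgMtdh-2. It was 3.01 with totals that leave out the family and 2.97 without Mtdh 1-2. The Miat and Mtdh comparisons share the same 4 control libraries.

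By guide, Mir30d fell with each of the Miat guides. Against sgGal4-4 the log2 fold change was -1.66 with sgMiat-96 (edgeR adjusted p = 0.00322) and -1.61 with sgMiat-6 (edgeR adjusted p = 0.00172), in comparisons where 27.6% and 24.1% of the 29 miRNAs passed. Between sgMiat-96 and sgMiat-6 it was -0.05 (SE 0.39, edgeR adjusted p = 0.928), where 6.90% of miRNAs passed. With the Mtdh guides the values were 1.39 for sgMtdh-2 (edgeR adjusted p = 0.00624) and 0.50 for sgMtdh-1 (edgeR adjusted p = 0.266), where 17.2% of miRNAs passed in each. Direct comparison of sgMtdh-2 with sgMtdh-1 gave 0.88 (SE 0.39, edgeR adjusted p = 0.272). In that comparison 0% of the 29 miRNAs passed in edgeR with TMM, 5 reached 0.05 before adjustment, and DESeq2 size factors in place of TMM also gave 0 calls. Mir30d passed between the Mtdh guides in 3 of 18 alternatives, at 1.31 with upper-quartile scaling (edgeR adjusted p = 0.0335), 1.15 with a minimum count of 5 (edgeR adjusted p = 0.0299) and 1.61 without Mtdh 1-1 (edgeR adjusted p = 0.0183). The call for sgMtdh-2 against control was lost with library totals, at 0.41 (edgeR adjusted p = 0.170), a fit in which all 13 called miRNAs, 44.8% of the 29, were lower. It was also lost without Mtdh 2-1, at 1.23 (edgeR adjusted p = 0.123), and without Mtdh 1-2 the sgMtdh-1 value was 0.77 (edgeR adjusted p = 0.0270). Over single libraries left out, the sgMtdh-1 value ran from -0.28 to 0.77.

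**Figure D3:**
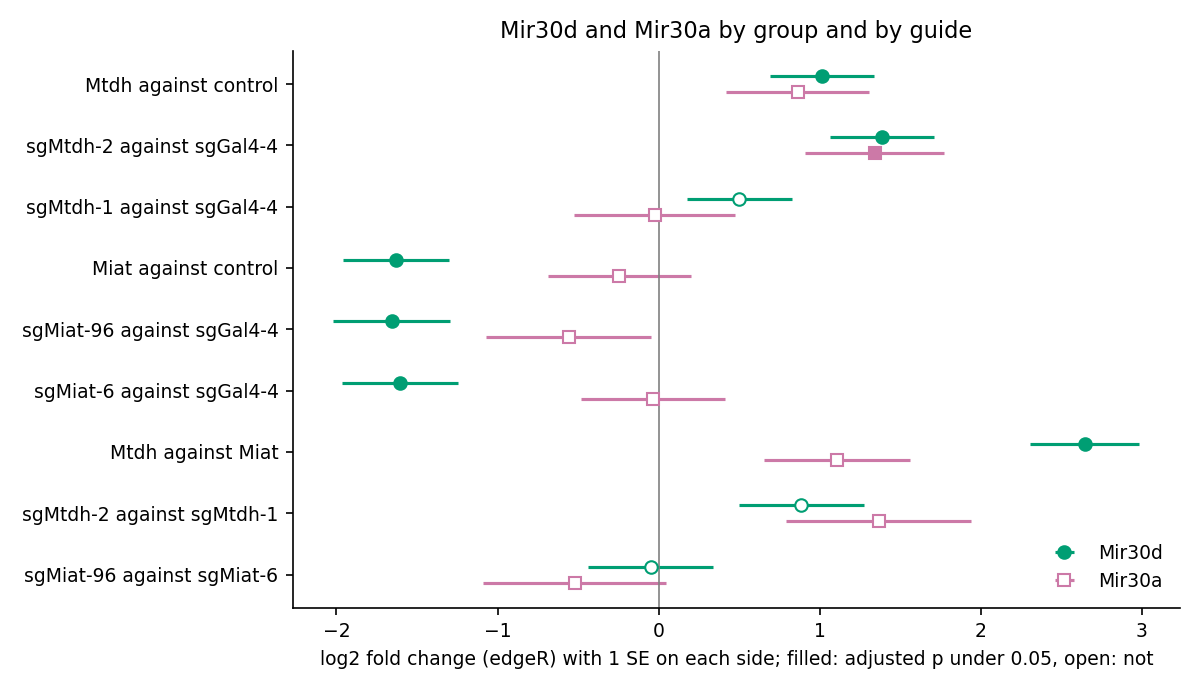
Log2 fold changes of Mir30d (circles) and Mir30a (squares) from edgeR with 1 SE on each side, by group and by guide; filled symbols have an adjusted p under 0.05. Mir30d lies at -1.66 and -1.61 with the Miat guides, while Mir30a lies at -0.56 and -0.04 without passing.

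Mir30a, whose 5p form is known to lower the autophagy protein Beclin 1, was the next member by count. It had 69 and 7 counts with sgMtdh-2, 6 and 22 with sgMtdh-1, 13 and 6 with sgMiat-96, 16 and 30 with sgMiat-6, and 10, 20, 16 and 30 in the controls. Per 100 counts of miRNAs outside the family its average was 1.86 ± 1.20 in Mtdh libraries, 0.719 ± 0.420 in Miat libraries and 1.20 ± 0.259 in controls (SD, n = 4 each), and the groups overlapped. Its log2 fold change was 0.86 for Mtdh against control (SE 0.45, edgeR adjusted p = 0.174), -0.24 for Miat against control (SE 0.44, edgeR adjusted p = 0.814) and 1.11 for Mtdh against Miat (SE 0.45, edgeR adjusted p = 0.193).

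Guide by guide, Mir30a passed with sgMtdh-2 alone among the 4 guides, at 1.34 (SE 0.43, edgeR adjusted p = 0.0417). That value turns on Mtdh 2-1, which held 69 of the 76 counts, and without that library it was 0.40 (edgeR adjusted p = 0.787). In all, 12 of 18 alternatives ended the call. With sgMtdh-1 Mir30a was at -0.02 (edgeR adjusted p = 0.961), with sgMiat-96 at -0.56 (edgeR adjusted p = 0.406) and with sgMiat-6 at -0.04 (edgeR adjusted p = 0.944). Between sgMtdh-2 and sgMtdh-1 it was 1.37 (SE 0.57, edgeR adjusted p = 0.272), and between sgMiat-96 and sgMiat-6 -0.52 (SE 0.57, edgeR adjusted p = 0.520).

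Set against each other within a library, the 2 members did not keep the same proportion. Mir30d had 76.2 and 178 counts per Mir30a count with sgMtdh-2, 107.5 and 120 with sgMtdh-1, 41.9 and 52.8 with sgMiat-96, 55.6 and 22.5 with sgMiat-6, and 123, 101, 96.1 and 83.0 in the controls. All 4 Miat libraries lay below every library of the other groups. The log2 difference was -1.29 for Miat against control, or 2.45-fold lower (exact permutation p = 0.0286, n = 4 each, adjusted p = 0.0429). For Mtdh against control it was 0.20 (exact permutation p = 0.543, adjusted p = 0.543), and for Mtdh against Miat 1.50, or 2.82-fold higher (exact permutation p = 0.0286, adjusted p = 0.0429). This ratio needs no scaling between libraries, and it shows unequal change of the pair rather than which of them moved. Several ratios rest on 6 or 7 Mir30a counts.

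**Figure D4:**
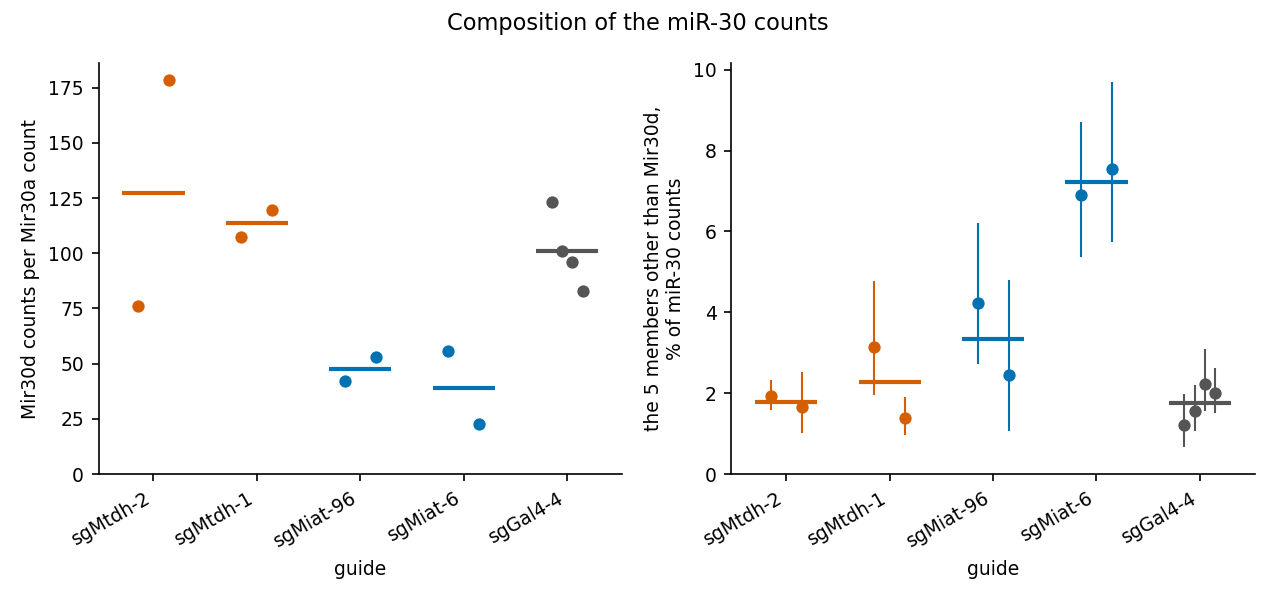
Mir30d counts per Mir30a count (left) and the 5 other members as a percent of all miR-30 counts (right), by guide; points are libraries, bars are guide means and vertical lines are 95% exact binomial intervals. Miat libraries lie lowest on the left, at 22.5 to 55.6, and the sgMiat-6 libraries lie highest on the right, at 6.90% and 7.54%.

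Mir30c-1 and Mir30c-2 give the same 5p form, which in mice is known to lower the lipid transfer protein Mttp. Mir30c-1 had 10 and 3 counts with sgMtdh-2, 4 and 6 with sgMtdh-1, 5 and 0 with sgMiat-96, 26 and 17 with sgMiat-6, and 1, 2, 9 and 5 in the controls. Mir30c-2 had 16 and 2 with sgMtdh-2, 7 and 8 with sgMtdh-1, 2 and 2 with sgMiat-96, 13 and 7 with sgMiat-6, and 1, 3, 7 and 4 in the controls. The sgMiat-6 libraries held the highest Mir30c-1 counts of the series.

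Summed over the 2 loci, the 30c rate per 1000 counts of miRNAs outside the family was 10.2 in Mtdh libraries (95% exact Poisson interval 7.67 to 13.2), 7.79 in Miat libraries (6.09 to 9.81) and 5.25 in controls (3.59 to 7.42). For the guides of Miat the rate was 2.22 with sgMiat-96 (1.02 to 4.22) and 12.1 with sgMiat-6 (9.32 to 15.5), in intervals for counting error only. All these rates would be too high and their intervals too narrow if shared reads were counted at both loci. In an added fit with the loci summed, the 30c log2 fold change was 1.49 for Mtdh against control (edgeR adjusted p = 0.126), 0.92 for Miat against control (edgeR adjusted p = 0.377) and 0.57 for Mtdh against Miat (edgeR adjusted p = 0.508). None of these passed. With sgMiat-6 alone it was 1.46 (edgeR adjusted p = 0.103). In a fit with a lower filter, which tested 54 miRNAs, Mir30c-1 was at -2.20 for sgMiat-96 against sgMiat-6 (edgeR adjusted p = 0.388). For sgMiat-6 against sgGal4-4, Mir30c-1 had enough counts in 13 alternatives, with log2 fold changes of 1.40 to 2.32. It passed in 1 of them, without Mtdh 1-2, at 1.73 (edgeR adjusted p = 0.0451).

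Mir30b and Mir30e were near the limit of what these libraries can count. Mir30b had 3 and 6 counts with sgMtdh-2, 4 and 1 with sgMtdh-1, 4 and 0 with sgMiat-96, 6 and 1 with sgMiat-6, and 1, 3, 2 and 12 in the controls. Its rate per 1000 counts of miRNAs outside the family was 2.54 in Mtdh libraries (95% exact Poisson interval 1.39 to 4.26), 1.19 in Miat libraries (0.594 to 2.13) and 2.96 in controls (1.75 to 4.67), and the intervals overlap. With the lower filter its log2 fold change was 0.74 for Mtdh against control (edgeR adjusted p = 0.696) and -0.70 for Miat against control (edgeR adjusted p = 0.810). For Miat against control the SE was 1.01, on 11 counts in Miat libraries and 18 in controls.

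Mir30e had 5 and 3 counts with sgMtdh-2, 0 and 0 with sgMtdh-1, 0 and 0 with sgMiat-96, 5 and 0 with sgMiat-6, and 2, 4, 1 and 0 in the controls. Its zeros allow up to 3 counts each. Mir30f, annotated at the same coordinates on the opposite strand, had the same count as Mir30e in all 12 libraries, so counts at this locus did not separate the strands and the Mir30e values are uncertain. Group sums were 8 in Mtdh libraries, 5 in Miat libraries and 7 in controls. With no filter on low counts its log2 fold change was 0.35 for Mtdh against control (SE 1.51, edgeR adjusted p = 1), -1.14 for Miat against control (SE 1.52, edgeR adjusted p = 0.714) and 1.48 for Mtdh against Miat (SE 1.54, edgeR adjusted p = 0.580).

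Outside the 6 members, the same seed was found once among the listed mature forms, in Mir384, which brain tissue is known to express. The list is not complete, since it lacks Mir30b and Mir30d. It had 3 counts in Mtdh 2-1 and 0 in the 11 other libraries. Among the 6 members and Mir384, counts therefore fell almost wholly on the Mir30d hairpin, which carries the seed going by its family name. Counts per hairpin do not separate the arms, and the 3p forms printed above carry other seeds. They therefore do not measure how many reads held this seed. Other miRNAs known to hold back mesenchymal transition were taken as a list: Mir200a, Mir200b, Mir200c, Mir141, Mir429, Mir205, Mir34a, Mir34b and Mir34c. All 9 are in the tables and had 0 counts in every library, which allows up to 3 of the 40812 miRNA counts, or 0.00735%. Zeros were common, since 270 of all 1116 miRNA symbols had counts in any library.

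The miRNAs whose levels were most like Mir30d across the 12 libraries were Mir99b (Pearson r = 0.74 of log2 TMM-scaled counts), Mir30a (0.72) and Mir7-1 (0.60). Least like it were Mir92-1 (-0.80) and Mir6538 (-0.58). These describe 12 libraries that share groups, depth and scaling, and carry no test. After the group means were taken out, Mir30a kept a value of 0.67, Mir99b 0.36, Mir7-1 0.36, Mir6538 -0.16 and Mir92-1 -0.56. Mir92-1 belongs to the miR-17~92 cluster, known to promote the growth of Hedgehog-driven granule progenitors. That cluster and its paralogue took 4.39% to 6.59% of miRNA counts outside the miR-30 family in Mtdh libraries, 2.50% to 13.0% in Miat libraries and 2.56% to 4.01% in controls. Within the Miat libraries it was 2.50% and 5.45% with sgMiat-96 against 10.4% and 13.0% with sgMiat-6, while Mir30d was below the controls with both guides. Neural miRNAs took 0.860% to 4.01% in Mtdh libraries, 1.21% to 4.82% in Miat libraries and 4.74% to 5.61% in controls. These shares add the 3 Mir9 loci, whose counts were close in each library, so they are too high if the same reads were counted at several loci. The part of either list in the Mir30d differences was not tested.

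**Figure D5:**
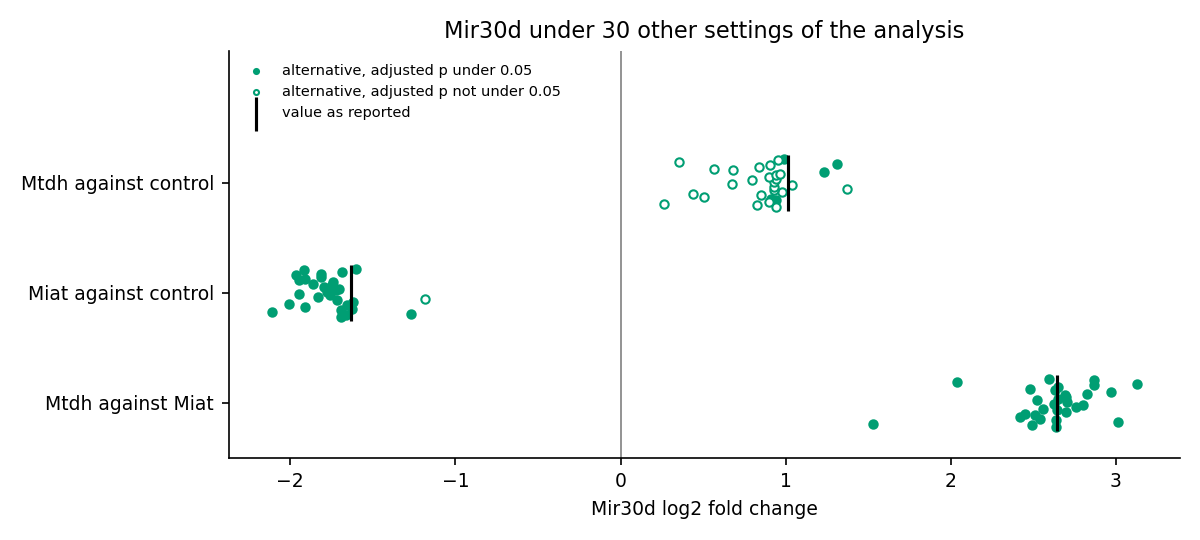
Mir30d log2 fold change for the 3 pairs of groups: the black bar is the value as reported and each circle is 1 of 30 other settings (scaling, filter, tool, or libraries left out), filled where the edgeR, DESeq2 or limma adjusted p was under 0.05. Miat against control kept its call in 29 of 30 settings, Mtdh against Miat in 30 of 30, and Mtdh against control in 5 of 30.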

How the data were processed

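The authors deposited whole-number counts per RefSeq non-coding transcript, with FPKM and TPM values beside them, per the file headers. STAR, GRCm38 and mm10 are named without versions per the submitters' processing notes; the counting tool, trimming, strand setting and handling of multiply mapped reads were not given in the sources used here. Reads with several positions bear on the 30c loci, and reads without strand on Mir30e. Only counts were tested. The deposited FPKM served to recover precursor lengths, and the deposited TPM values were not used.

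Precursor counts of 1 symbol were summed. edgeR 4.0.16 in R 4.3.3 (filterByExpr by group with minimum count 10 and minimum total 15, TMM factors of 0.523 to 1.62, quasi-likelihood F-test, 1 term per group or per guide over all 12 libraries) tested 29 miRNAs, with Benjamini-Hochberg adjustment within a comparison at 0.05. The method was tested on simulated data in which Mir30d was never among the changed miRNAs, so a change in the most counted miRNA was not covered. A count of 0 was taken to allow 3 counts. Within-library ratios of deposited counts were compared by two-sided exact permutation tests of their log2 values in Python 3.11.15 with scipy 1.17.1. Libraries of a guide differed beyond counting noise, with chi-squared p of at most 0.0314 for every pair, so none was treated as a copy of another; repeat preparations of 1 culture would differ in this way too. Members with too few counts are given as counts with 95% exact Poisson intervals. pandas 2.3.3 joined the tables and matplotlib 3.10.9 drew the plots.

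All 6 members are described. Also named, by rule, were miRNAs with the same seed, the 3 most and 2 least like Mir30d among the tested miRNAs, and the lists given in the text. The members and lists were chosen with earlier results of these data known. Alternatives were DESeq2 1.42.0, limma-voom 3.58.1, other scalings and filters, a replicate block, the Rn45s share as a covariate, fewer groups, and each library and guide left out. Alternatives added with the data in view left out libraries under 2000 miRNA counts, summed the 30c loci, left Mir6538 out of the other miRNAs, or used the lower filter (minimum count 5) by guide; they were chosen after seeing the data.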

Additional observations from a re-analysis of the deposited data

Results flagged for a closer look

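Mir30d in Miat 96-1 had 18.2 counts per 100 counts of other miRNAs, the lowest of the Miat libraries and far from the other 3, which held 29.1 to 29.5. Mir6538 made up 1551 of its 2989 other miRNA counts, and with Mir6538 left out of all libraries Miat 96-1 held 37.9, against 36.3 to 37.0 in the other Miat libraries. Set against small nucleolar and Cajal body RNAs, the same library was the highest of the 4, at 6.94.

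Mir30a in Miat 6-2 had 1.34 counts per 100 counts of miRNAs outside the family, from 30 counts, while the other 3 Miat libraries held 0.438 to 0.555. Of 24 sets of 4 libraries examined in this way, 2 held such a distant library, where chance gives about 1 in 20.

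The Mir30d log2 fold change was 2.64 between Mtdh and Miat libraries (edgeR adjusted p = 3.30e-05), which is the direct test that the guides of the targets differ in their Mir30d level against the same controls.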

How the results depend on the processing

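The lower Mir30d of Miat against control libraries kept its direction and call in 29 of 30 alternatives; with the Rn45s share as a covariate it was -1.19 (edgeR adjusted p = 0.296). Mtdh against Miat libraries kept the call in 30 of 30, at 1.53 with library totals, 2.04 without sgMtdh-2 and 3.01 with totals that leave out the family. Mtdh against control kept its direction in all 30 but the call in only 5, which were DESeq2, limma-voom, the summed 30c loci, and fits without Mtdh 1-2 or without sgMtdh-1. The log2 fold change of that comparison, no longer past the threshold, was 0.94 with DESeq2 size factors, 0.83 with upper-quartile factors, 0.26 with library totals, 0.90 with totals that leave out the family, 0.51 without a filter, 0.85 with a minimum count of 5, 0.44 with all transcripts together, 0.98 with only those groups and 1.37 with the Rn45s covariate. It was 0.84 without sgMiat-6, 0.90 without sgMiat-96, 0.35 without sgMtdh-2 and 0.95 without libraries under 2000 miRNA counts. With 1 library left out at a time it ran from 0.56 to 1.23. The cause was not tested.

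With a replicate block (the number that ends each library's name), Mtdh against control was 0.93 (edgeR adjusted p = 0.292). The block left 1 of 29 miRNAs called in Mtdh against control, 3 in Miat against control and 1 in Mtdh against Miat, against 7, 7 and 2 without it. Numbers 3 and 4 occur only among controls, so control 3 and control 4 drop out of both comparisons with control. The fewer calls there cannot show a batch. Deviations of same-numbered libraries from their group means correlated at -0.35 to 0.26 over 16 pairs. Differences between the guides of a target are part of these deviations, so they cannot show whether same-numbered libraries share a batch. Counts of calls also moved with all transcripts together, to 14, 20 and 5 of 143 tested, and with library totals, to 15 in Mtdh against Miat. They moved to 1, 2 and 1 with the Rn45s covariate, and to 0 in edgeR for Mtdh against control without a filter, where 17 of 270 miRNAs had an unadjusted p under 0.05; DESeq2 with the filter called 7. Leaving out single libraries gave 2 to 8, 6 to 12 and 1 to 4 calls.

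Within-library ratios moved by less than the spread between libraries in all alternatives run, including 1 without Mir6538. Mir30a passed in Mtdh against control without Mtdh 1-2 (1.23, edgeR adjusted p = 0.0485), and in Mtdh against Miat without that library (1.60) or without sgMtdh-1 (1.75). Depth limits the rest, since 3 counts stood for 558 to 4838 CPM of the tested miRNAs and the usual filter left out 4 members.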
